A study of Mus musculus with 6 samples.

Results

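The 34 genes described here encode the enzymes and transporters of glycolysis and of the pentose phosphate pathway, and they were taken by gene symbol from a list that sets no condition on their measured levels, although it was drawn up with earlier results of these data known. All 34 were found among the 21878 rows listed for each library. RNA-seq had been run on hematopoietic stem cells (HSCs) from the bone marrow of wild-type (WT) mice, with 3 control libraries and 3 libraries from mice treated with IGF1, the ligand of a receptor tyrosine kinase that drives growth signalling. Per the study's methods and figure legends, IGF1 was given under the skin as 1 dose of 200 µg/kg and HSCs were examined at day 1, and the HSC gate took lineage-negative, Sca-1-positive and c-Kit-positive cells lacking CD34 and Flt3. The extraction text in the labels names irradiated mice, whereas the treatment label names IGF-1, and the groups here follow the treatment label. No source used here says whether the replicates came from separate mice or pools or gives the age of the mice sequenced, so p-values measure the spread between these libraries, which may be technical.

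Glycolysis splits glucose into pyruvate in the cytosol, and in its last steps it returns ATP and NADH. Lactate dehydrogenase turns pyruvate into lactate, which monocarboxylate transporters carry across the plasma membrane. The oxidative branch of the pentose phosphate pathway takes glucose 6-phosphate away to make NADPH and ribulose 5-phosphate, and the non-oxidative branch interconverts sugar phosphates, so that ribose for nucleotides can be made or carbon returned to glycolysis. HSCs of the adult marrow are known for a high reliance on glycolysis.

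Control replicate 2 stood apart from the other controls. On the first principal component, which held 93.2% of the variance, it lay at 17.8, between control replicates 1 and 3 at -64.6 and -64.8 and the IGF1 libraries at 36.6 to 37.8. Control replicates 1 and 3 differed by more than 2-fold in 0 genes, control replicates 1 and 2 in 2502, and control replicate 2 and IGF1 replicate 1 in 104. The mean chi-squared per gene of the recovered reads was 1.52 between control replicates 1 and 3 and 1.69 to 1.89 between IGF1 replicates, where read sampling alone gives 1, and 24.6 to 27.9 between control replicate 2 and the IGF1 libraries. Between 11190763 and 15934784 reads lay on listed genes per library, and each of the 34 genes held between 21 and 32708 reads. The markers of the gate were mixed. Kit was at 31.4 to 104.8 FPKM in controls and 24.2 to 24.6 with IGF1, with control replicate 2 the lowest control. Ly6a, the Sca-1 gene, was at 219 to 615 and 374 to 387, and the gate required both proteins. Cd34 was at 265 to 640 FPKM in controls and 230.2 to 238 with IGF1, and Flt3 at 117 to 172 and 183 to 188, although the gate excluded both proteins. The HSC genes Mecom, Slamf1 and Fgd5 were low, between 0.277 and 4.10 FPKM in every library. Levels are given in FPKM, fragments scaled to gene length and to library depth, so that levels of different genes can be set side by side.

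The summed level of the 34 genes was lower in the IGF1 libraries. It came to 4506, 3788 and 4550 FPKM in control replicates 1, 2 and 3 and to 3350, 3333 and 3384 FPKM in IGF1 replicates 1, 2 and 3. The groups did not overlap, and p = 0.1 in a 2-sided exact permutation test, the smallest p that 3 libraries against 3 can give. In bulk RNA, fewer cells of a type and less RNA per cell cannot be told apart. All 34 genes passed the filter of 1 FPKM in at least 3 libraries, and each was tested with limma on log2(FPKM + 1) in a fit of 10435 genes. The call asked for more than a 2-fold difference together with an adjusted p under 0.05. Of the 34 genes, 2 were called lower, Rpe and Pgm2, against 4.62% of all genes tested, and 0 were called higher, against 1.98%. Either direction was called in 6.60% of all genes tested, and the 2 calls are 5.9% of the 34. In the higher direction, 6 of the 34 had an unadjusted limma p under 0.05, beside 1990 of the 10435 genes tested. Voom on the recovered reads also called 0 of the 34 higher, and 379 of all genes tested. At the adjusted p alone, without the fold threshold, 9 of the 34 were lower and 1, Hk3, was higher, against 14.1% and 6.27% of all genes tested (20.4% in either direction). The groups did not overlap in 20 genes that were lower with IGF1 and 8 that were higher, or 58.8% and 23.5% of the 34, against 37.4% and 22.0% of all genes tested (59.3% in either direction), so that the lower share was above that of all genes and the higher share close to it. The median log2 fold change of the 34 genes was -0.49, beside -0.18 for all genes tested. With libraries scaled to their 75th percentile these medians were -0.24 and 0.04, and with quantile normalization -0.48 and -0.02.

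**Figure D1:**
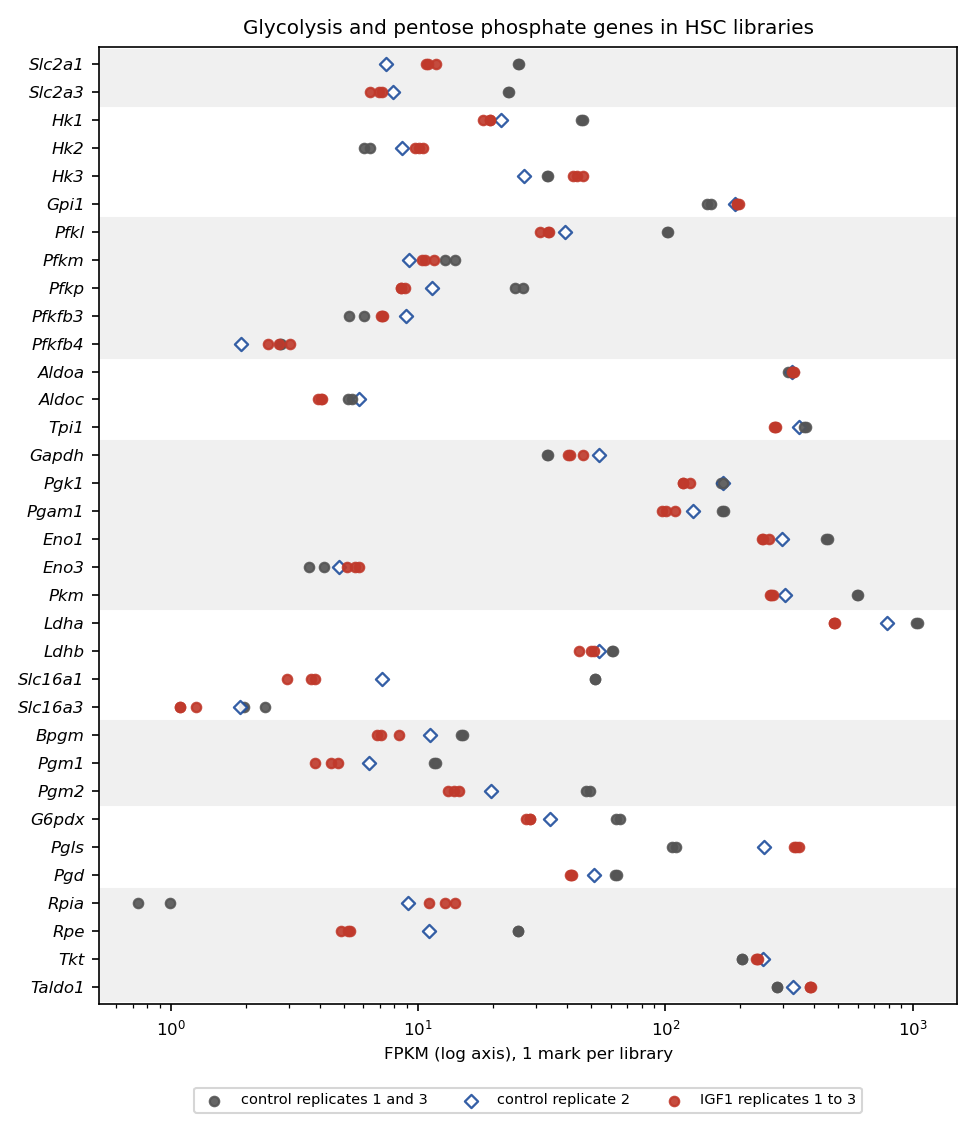
FPKM of each of the 34 genes in each library on a log axis, with genes in pathway order and shading that separates the steps. Filled grey circles are control replicates 1 and 3, open diamonds control replicate 2 and red circles the 3 IGF1 libraries. In 20 genes every red circle lies left of every control mark, in 8 every red circle lies right of them, and the diamond often lies between the grey and the red marks.

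The calls turned on control replicate 2. Without it, 12 of the 34 genes were called lower and 2 higher, 35.3% and 5.9% of them, against 20.6% and 12.3% of all genes tested. The lower genes were Slc2a1, Slc2a3, Hk1, Pfkl, Pfkp, Pkm, Ldha, Slc16a1, Pgm1, Pgm2, G6pdx and Rpe, and the higher genes were Pgls and Rpia. Among the libraries of this fit, Rpia reached 1 FPKM only in those with IGF1 (0.986 and 0.735 FPKM in control replicates 1 and 3). At the adjusted p alone 22 of the 34 were lower and 10 higher, against 53.6% and 34.9% of all genes tested, or 88.5% in either direction. With any 1 of the other 5 libraries left out, 0 of the 34 were called by limma and 0 of all genes tested. At an unadjusted limma p under 0.05, 12 or 13 of the 34 were then lower and 2 or 3 higher. Over the 10435 genes tested, 2014 to 2166 were lower and 958 to 1033 higher at that level. Between control replicates 1 and 3 no member differed by more than 0.19 on the log2 scale, so that the fit without control replicate 2 rests on a very small spread. Of the 19 members that differed by more than 1.5-fold without control replicate 2, that library lay nearer to IGF1 than to the other controls in 16, beside 87.6% of 5958 such genes over all genes tested. In 9 members control replicate 2 did not lie between the mean of control replicates 1 and 3 and the mean of the IGF1 libraries on that scale. The median of the IGF1 mean minus a single control was -0.48 for control replicate 1, -0.24 for replicate 2 and -0.55 for replicate 3. What set control replicate 2 apart was not tested.

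**Figure D2:**
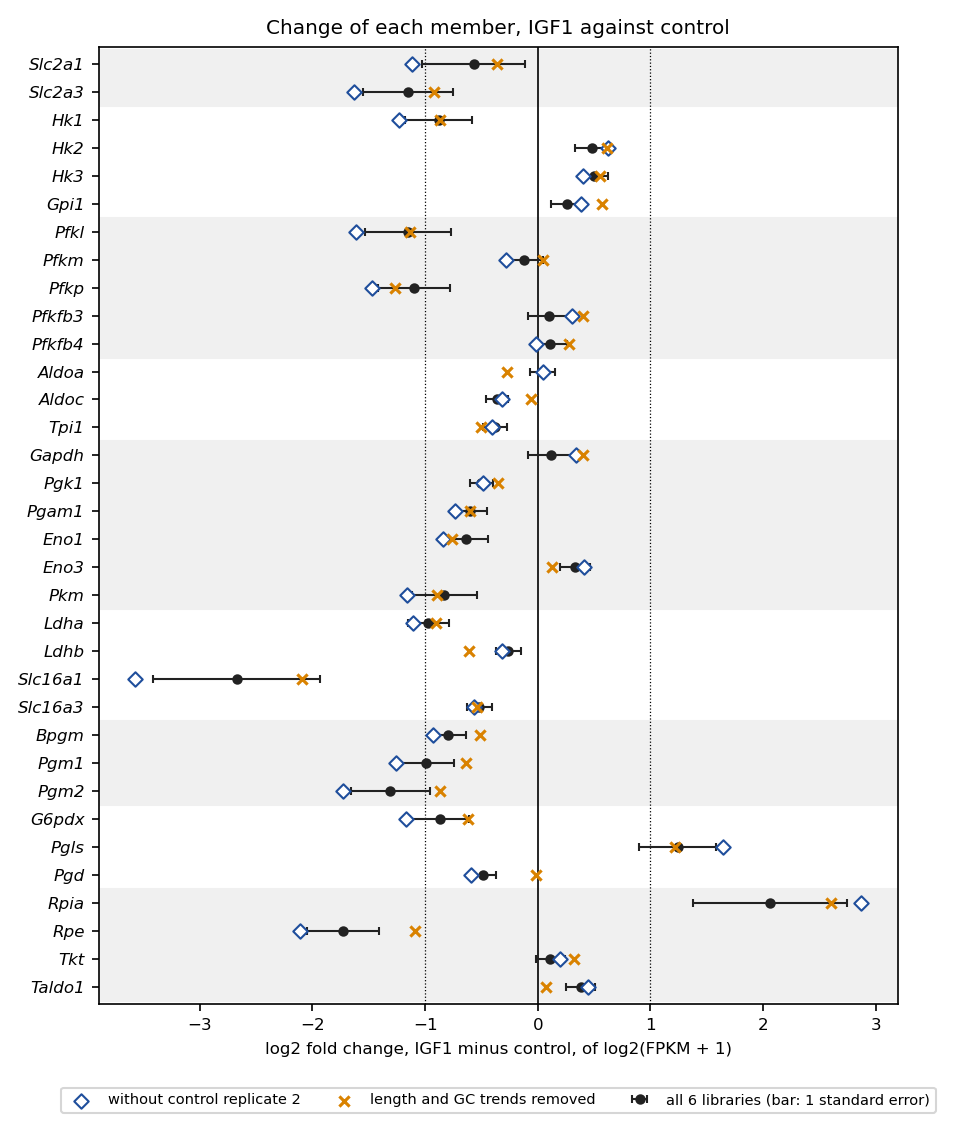
Difference between IGF1 and control on the log2(FPKM + 1) scale for each of the 34 genes, in pathway order. Black circles with bars of 1 standard error are the fit of all 6 libraries, blue diamonds the fit without control replicate 2, and orange crosses the fit after trends with transcript length and GC content were removed, with dotted lines at -1 and 1. Slc16a1 (-2.67), Rpe (-1.73), Rpia (2.06) and Pgls (1.24) lie farthest from 0 on their sides in the fit of all libraries, and control replicate 2 shortens most of these distances.

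The log2 fold changes of Rpe and Rpia had opposite signs, and that of Rpia did not pass in the fit of all libraries. Promoter sequences are shown for the 4 genes on which the account turns most, the lactate genes Slc16a1 and Ldha and the 2 pentose isomerizing genes Rpe and Rpia. They are the RefSeq windows on GRCm38.p6 from 250 bases before to 50 after a transcript start listed by RefSeq (the first listed where there are several), read 5′ to 3′ on the gene's strand. Capitals mark each ACGTG, the core letters of the hypoxia response element, and each CACGTG, the E-box letters that MYC and USF proteins can bind, on either strand. A CACGTG also holds an ACGTG, so the counts overlap. The window of Slc16a1 is chr3:104638414-104638713 (+), that of Ldha chr7:46845554-46845853 (+), that of Rpe chr1:66700581-66700880 (+) and that of Rpia chr6:70792126-70792425 (-). The start used for Ldha lies inside the longer span that the GRCm38 gene annotation gives for this gene.
Slc16a1: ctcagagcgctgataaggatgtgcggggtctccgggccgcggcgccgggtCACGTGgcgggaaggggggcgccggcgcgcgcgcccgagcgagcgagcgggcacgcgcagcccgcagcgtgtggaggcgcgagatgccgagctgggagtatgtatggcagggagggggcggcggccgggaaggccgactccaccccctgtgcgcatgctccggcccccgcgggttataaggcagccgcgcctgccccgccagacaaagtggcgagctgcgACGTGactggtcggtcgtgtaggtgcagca
Ldha: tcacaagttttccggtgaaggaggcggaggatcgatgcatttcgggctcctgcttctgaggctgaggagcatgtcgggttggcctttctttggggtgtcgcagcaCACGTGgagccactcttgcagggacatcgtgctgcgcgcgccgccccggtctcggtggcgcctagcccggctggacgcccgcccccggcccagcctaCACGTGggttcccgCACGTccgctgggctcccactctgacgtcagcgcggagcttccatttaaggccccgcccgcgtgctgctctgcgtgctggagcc
Rpe: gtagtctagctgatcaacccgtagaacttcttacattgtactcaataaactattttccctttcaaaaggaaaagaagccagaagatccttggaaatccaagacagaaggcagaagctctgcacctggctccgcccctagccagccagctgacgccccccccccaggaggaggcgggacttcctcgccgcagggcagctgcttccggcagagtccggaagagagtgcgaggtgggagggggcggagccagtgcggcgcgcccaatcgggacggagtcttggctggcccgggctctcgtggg
Rpia: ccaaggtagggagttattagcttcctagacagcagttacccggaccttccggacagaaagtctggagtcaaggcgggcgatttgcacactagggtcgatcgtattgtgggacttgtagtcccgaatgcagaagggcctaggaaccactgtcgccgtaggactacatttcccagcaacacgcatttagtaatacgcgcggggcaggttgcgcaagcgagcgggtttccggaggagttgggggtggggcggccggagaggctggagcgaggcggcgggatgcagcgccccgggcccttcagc
The window of Ldha held 3 marked stretches and that of Slc16a1 held 2, while those of Rpe and Rpia held 0. Of the 33 members with a window in the table, all but Slc2a3, 18 held ACGTG in any of their windows, or 54.5%, against 30.0% of 8142 genes tested with a window and 21.8% of 27025 genes in the table. CACGTG was in 4 of the 33, Pfkm, Pfkfb3, Ldha and Slc16a1, or 12.1% against 12.2% of the genes tested. The median log2 fold change was -0.55 in the members with ACGTG and -0.26 in those without. These matches describe letters in a window and say nothing on binding.

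Glucose enters through the transporters GLUT1 (Slc2a1) and GLUT3 (Slc2a3), and both genes had lower group means with IGF1 but neither passed the test. Slc2a3 was at 23.0, 7.92 and 23.2 FPKM in control replicates 1, 2 and 3 and at 7.10, 6.37 and 6.94 FPKM with IGF1. All IGF1 libraries lay below all controls, and control replicate 2 lay close above them. The log2 fold change was -1.15 (SE 0.40, limma adjusted p = 0.0712) and -1.63 without control replicate 2. Slc2a1 was at 25.5, 7.40 and 25.2 FPKM in controls and at 10.7, 11.8 and 10.96 FPKM with IGF1. Here control replicate 2 was the lowest of all 6 libraries, so the groups overlapped, with a log2 fold change of -0.57 (SE 0.46, limma adjusted p = 0.326).

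Hexokinases phosphorylate glucose and so trap it in the cell, and their 3 measured genes did not move as one. Hk3, an isoform typical of myeloid cells, was the 1 member that was higher at the adjusted p alone. It was at 33.1, 26.7 and 33.3 FPKM in controls and at 43.7, 42.3 and 46.3 FPKM with IGF1, with a log2 fold change of 0.50 (SE 0.12, limma adjusted p = 0.0451). Control replicate 2 was the lowest library for Hk3, farther from IGF1 than the other controls. The summed level of 18 neutrophil and monocyte genes was 3690 to 6206 FPKM in controls and 6191 to 6227 FPKM with IGF1, with 0 of the 18 at 0 in every library, and control replicate 2 held the 6206. Within that list Mpo was at 1613 to 1705 FPKM in all libraries, Elane at 92.4 to 576 FPKM in controls and 692 to 709 FPKM with IGF1, and Ngp, Camp, S100a8 and S100a9 were called lower. The part of such cells in the Hk3 result was not tested.

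Hk1, the isoform of most tissues, was at 46.5, 21.6 and 45.6 FPKM in controls and at 19.5, 19.6 and 18.2 FPKM with IGF1, with the groups apart and control replicate 2 next to IGF1. The log2 fold change was -0.88 (SE 0.30, limma adjusted p = 0.0683). Hk2, the isoform known for its regulation by insulin and growth factors, was the lowest of the 3, at 6.02, 8.60 and 6.35 FPKM in controls and 9.67, 10.5 and 10.1 FPKM with IGF1. Its groups were apart too, with a log2 fold change of 0.48 (SE 0.15, limma adjusted p = 0.0608). Gpi1, which turns glucose 6-phosphate into fructose 6-phosphate, was at 153, 192 and 148 FPKM in controls and 195, 195 and 198 FPKM with IGF1. Control replicate 2 lay just below the IGF1 libraries, and the log2 fold change was 0.26 (SE 0.14, limma adjusted p = 0.1504).

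Phosphofructokinase commits sugar to glycolysis, and the liver-type gene Pfkl carried most of its transcript. Pfkl was at 101, 39.1 and 103 FPKM in controls and at 33.8, 31.2 and 33.5 FPKM with IGF1. The platelet-type gene Pfkp was at 24.7, 11.4 and 26.5 FPKM in controls and at 8.50, 8.82 and 8.52 FPKM with IGF1. Both genes had groups apart with control replicate 2 near the IGF1 libraries, and neither passed the test, with log2 fold changes of -1.15 for Pfkl (limma adjusted p = 0.0639) and -1.10 for Pfkp. The muscle-type gene Pfkm was at 14.1, 9.18 and 12.8 FPKM in controls and at 10.4, 10.7 and 11.5 FPKM with IGF1, where control replicate 2 was the lowest library and the groups overlapped. Its log2 fold change of -0.12 turned to 0.22 with quantile normalization. Pfkfb3 and Pfkfb4 make fructose 2,6-bisphosphate, the activator of phosphofructokinase, and stood at 5.22 to 8.95 FPKM and 1.91 to 3.04 FPKM over all libraries. The groups of both overlapped, with log2 fold changes of 0.10 and 0.11.

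Aldolase and triose phosphate isomerase split and interconvert the 3-carbon sugars. Aldoa, the main aldolase of these cells, was nearly flat at 312, 324 and 321 FPKM in controls and 330, 328 and 326 FPKM with IGF1. Its log2 fold change was 0.04, and -0.47 with quantile normalization, so no direction is given for it. Tpi1 was at 372, 347 and 364 FPKM in controls and 279, 275 and 278 FPKM with IGF1, with control replicate 2 among the controls and a log2 fold change of -0.38 (SE 0.11, limma adjusted p = 0.0556). Aldoc, the minor aldolase, was at 5.19 to 5.73 FPKM in controls and 3.93 to 4.08 FPKM with IGF1, with a log2 fold change of -0.36 that came to -0.06 once length and GC trends were removed.

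In the payoff phase, in which ATP and NADH are made, Pgk1 and Pgam1 were lower with IGF1 at the adjusted p alone, and the other 4 of its 6 genes did not pass. The groups were apart and lower in 4 of the 6, beside 37.4% of all genes tested. Pgk1, the phosphoglycerate kinase that makes the first ATP of this phase, was at 168, 171 and 171 FPKM in controls and at 117, 118 and 126 FPKM with IGF1. Control replicate 2 lay with the other controls, and the log2 fold change was -0.50 (SE 0.10, limma adjusted p = 0.0367). Pgam1, the phosphoglycerate mutase, was at 169, 129 and 172 FPKM in controls and at 96.5, 101 and 110 FPKM with IGF1, a log2 fold change of -0.60 (SE 0.15, limma adjusted p = 0.0458). Both genes missed the 2-fold threshold, and with libraries scaled to the 75th percentile neither passed on the adjusted p (log2 fold changes of -0.24 and -0.35, limma adjusted p = 0.172 and 0.0648).

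Pkm, the pyruvate kinase, was at 593, 306 and 600.5 FPKM in controls and at 264, 266 and 272 FPKM with IGF1. All IGF1 libraries lay below all controls, control replicate 2 lay next to them, and the log2 fold change was -0.83 (SE 0.29, limma adjusted p = 0.0683). The files give 1 value for Pkm, so its M1 and M2 transcripts were not separated. Eno1, the main enolase, was at 448, 296 and 456 FPKM in controls and at 248, 246 and 261 FPKM with IGF1, with a log2 fold change of -0.64 (SE 0.20, limma adjusted p = 0.0594). A near-identical copy in the mouse genome, Eno1b, was at 20.4, 9.66 and 19.3 FPKM in controls and at 7.89, 7.69 and 8.91 FPKM with IGF1. Its log2 fold change was -0.87. Reads may have been divided between the copies, so the level of Eno1 is uncertain. Eno3, the muscle enolase, was low at 3.61 to 4.80 FPKM in controls and 5.16 to 5.77 FPKM with IGF1. Gapdh was at 33.3, 53.9 and 33.4 FPKM in controls and 40.4, 41.1 and 46.3 FPKM with IGF1, with control replicate 2 the highest of all. This is below Aldoa and Tpi1 in every library, and because Gapdh has many pseudogene copies that can take its reads, its level is uncertain.

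In lactate formation and export, Ldha and Slc16a3 were lower with IGF1 at the adjusted p alone, and Ldhb and Slc16a1 did not pass. The groups were apart and lower in all 4 genes, as in 37.4% of all genes tested. Ldha (chr7:46841475-46855627, + strand, GRCm38), which encodes the M subunit of lactate dehydrogenase, was the most abundant of the 34 genes in every library. It was at 1032, 786 and 1051 FPKM in controls and at 481, 484 and 482 FPKM with IGF1. The controls averaged 956 ± 148 and the IGF1 libraries 482 ± 1.43 (SD, n = 3), and the 3 IGF1 libraries nearly coincided. The log2 fold change of -0.97 (SE 0.18) passed at the adjusted p alone (limma adjusted p = 0.0355) and fell just short of 2-fold, whereas without control replicate 2 it was -1.11. With quantile normalization Ldha was called lower (-1.68, limma adjusted p = 0.0425). Ldhb, the H subunit, was at 60.5, 53.7 and 61.5 FPKM in controls and 51.2, 44.8 and 49.8 FPKM with IGF1, a log2 fold change of -0.26 (limma adjusted p = 0.0939) that came to -0.01 at the 75th percentile.

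Slc16a1 (chr3:104638668-104658462, + strand, GRCm38), the lactate and pyruvate transporter MCT1, had the largest log2 fold change of the 34 genes in size in the fit of all libraries, and was second to Rpia with length and GC trends removed (-2.09 against 2.60). It was at 51.8, 7.14 and 51.9 FPKM in control replicates 1, 2 and 3 and at 2.95, 3.81 and 3.68 FPKM in IGF1 replicates 1, 2 and 3. Control replicate 2 stood far below the other controls and about a doubling above the IGF1 libraries. The group means were 36.9 ± 25.8 and 3.48 ± 0.462 FPKM (SD, n = 3), and the log2 fold change was -2.67 (SE 0.74, limma adjusted p = 0.0520), short of the threshold. It was -3.57 without control replicate 2, when it was called (limma adjusted p = 1.3e-10), and it was also called with quantile normalization (-2.50, limma adjusted p = 0.0494). The recovered reads behind these values were 3675, 365 and 3704 in controls and 162, 191 and 210 with IGF1, so that the spread among controls was not one of read sampling. Slc16a3, the exporter MCT4, was far less abundant in the controls, at 1.98, 1.90 and 2.40 FPKM, and 1.09, 1.26 and 1.09 FPKM with IGF1. Control replicate 2 lay with the controls here, and the log2 fold change was -0.52 (SE 0.11, limma adjusted p = 0.0370), or -0.37 at the 75th percentile (limma adjusted p = 0.0501).

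On the side branches, Pgm2 was called lower. Pgm1 and Pgm2 encode phosphoglucomutases, which move phosphate on glucose and link glycolysis to glycogen, and since the 2 symbols were exchanged between releases of mouse nomenclature it is not settled which locus each row holds. Pgm2 was at 47.5, 19.7 and 49.3 FPKM in controls and at 14.7, 13.2 and 13.9 FPKM with IGF1. It fell by 1.31 on the log2 scale (SE 0.35, limma adjusted p = 0.04995), at the edge of the threshold. Pgm1 was at 11.6, 6.30 and 11.8 FPKM in controls and at 4.42, 3.83 and 4.73 FPKM with IGF1, with a log2 fold change of -0.99 (SE 0.25, limma adjusted p = 0.0459) just short of 2-fold. In both genes the groups were apart and control replicate 2 lay nearer to IGF1. Bpgm, which makes the 2,3-bisphosphoglycerate of red cells, was at 15.2, 11.1 and 14.9 FPKM in controls and at 6.80, 7.08 and 8.36 FPKM with IGF1. Its log2 fold change of -0.80 (SE 0.16) passed at the adjusted p alone (limma adjusted p = 0.0370). The 15 erythroid genes summed to 384 to 531 FPKM in controls and 284 to 302 FPKM with IGF1, with 0 of them at 0 in every library. Most of this sum was Car2, while Slc4a1 reached at most 0.116 FPKM. The part of erythroid cells in the Bpgm result was not tested.

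In the oxidative pentose phosphate branch the 3 enzymes did not move together. G6pdx, the dehydrogenase that opens the branch, was at 65.2, 34.05 and 62.9 FPKM in controls and at 28.3, 27.3 and 28.3 FPKM with IGF1, a log2 fold change of -0.87 (SE 0.26, limma adjusted p = 0.0550). Pgls, the lactonase of the next step, went the other way at 106, 249.9 and 110.1 FPKM in controls and 345, 338 and 331 FPKM with IGF1. The groups of both genes were apart, and control replicate 2 lay nearer to IGF1 in both. The log2 fold change of Pgls was 1.24 (SE 0.34, limma adjusted p = 0.0514), and 1.64 without control replicate 2, when it was called (limma adjusted p = 3.1e-11). Pgd, the dehydrogenase that releases ribulose 5-phosphate, was at 62.3, 51.3 and 63.5 FPKM in controls and at 41.4, 41.0 and 42.0 FPKM with IGF1. Its log2 fold change was -0.49 (SE 0.12, limma adjusted p = 0.0430), but -0.02 once the trends with length and GC were removed. The sum of the 3 genes, 234, 335 and 236 FPKM in controls and 415, 407 and 402 FPKM with IGF1, was higher with IGF1, where Pgls was its largest part.

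The non-oxidative branch held the call with the lowest adjusted p among called members and the member of the largest positive fold change. Rpe and Rpia both act on ribulose 5-phosphate, Rpe turning it into xylulose 5-phosphate and Rpia into ribose 5-phosphate. Rpe (chr1:66700831-66719805, + strand, GRCm38) was at 25.4, 11.1 and 25.2 FPKM in controls and at 5.31, 4.88 and 5.18 FPKM with IGF1. It fell by 1.73 on the log2 scale (SE 0.32, limma adjusted p = 0.0362), by 2.11 without control replicate 2 and by 1.09 with length and GC trends removed. Rpia (chr6:70765720-70792232, - strand, GRCm38) was at 0.986, 9.05 and 0.735 FPKM in control replicates 1, 2 and 3 and at 14.1, 11.1 and 12.9 FPKM with IGF1. It rested on 28, 185 and 21 reads in controls and 309, 222 and 294 with IGF1, and the exact 95% Poisson intervals were 0.655 to 1.43 FPKM for control replicate 1 and 7.79 to 10.4 FPKM for replicate 2, for counting error only. The controls thus held a difference well beyond their counting error. The log2 fold change of Rpia was 2.06 (SE 0.68, limma adjusted p = 0.0633) and 2.87 without control replicate 2, when it was called. Rpia reached the filter through the IGF1 libraries and control replicate 2. With control replicate 2 left out, the remaining controls lay under 1 FPKM. The call of Rpia in that fit thus rests on a gene kept only through the group where it was high.

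Transketolase and transaldolase, which shuffle carbon back toward glycolysis, were abundant. Tkt was at 204, 247 and 204 FPKM in controls and 235, 236 and 232 FPKM with IGF1, where control replicate 2 was the highest library and the groups overlapped. Taldo1 was at 282, 327 and 281 FPKM in controls and 387, 385 and 386 FPKM with IGF1, with the groups apart and a log2 fold change of 0.38 (SE 0.13, limma adjusted p = 0.0645). With quantile normalization the fold changes of both turned negative, at -0.14 and -0.11.

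Summed by step, the groups were apart and lower with IGF1 in 5 steps and apart and higher in 3, among them the hexokinases with Gpi1 and both pentose phosphate branches, but the direction of 2 of these 3 depended on the scaling. The payoff phase summed to 1415, 961 and 1438 FPKM in controls and 771, 778 and 821 FPKM with IGF1, and lactate formation and export to 1146, 849 and 1167 FPKM and 536, 534 and 537 FPKM. The phosphofructokinases and their regulators summed to 149, 70.5 and 149.9 FPKM in controls and 62.4, 60.5 and 63.6 FPKM with IGF1. In all of these the groups were apart, with p = 0.1 in the 2-sided exact permutation test. The non-oxidative branch summed to 512, 594 and 511 FPKM in controls and 641, 638 and 636 FPKM with IGF1 (exact permutation p = 0.1), most of it Tkt and Taldo1. As a percent of all FPKM of the library it was instead 0.110, 0.0937 and 0.110 in controls and 0.0943, 0.0942 and 0.0937 with IGF1, and with quantile normalization 659, 558 and 655 FPKM and then 572, 570.4 and 570 FPKM, so that it has no direction that holds under these scalings. The hexokinases with Gpi1 summed to 238, 248 and 233 FPKM in controls and 267, 267 and 272 FPKM with IGF1. With quantile normalization the groups stayed apart and higher with IGF1, at 241, 238.5 and 237 FPKM and then 266, 265 and 266 FPKM. As a percent of all FPKM the sums were 0.0512, 0.0392 and 0.0501 in controls and 0.0393, 0.0395 and 0.0402 with IGF1, with the groups overlapping. The oxidative branch, by contrast, had groups apart and higher with IGF1 under both of these scalings. Glucose uptake was the 1 step of 9 whose groups overlapped (exact permutation p = 0.4), with control replicate 2 lowest at 15.3 FPKM. The summed level of 12 proliferation genes was also lower with IGF1. It was 1100 to 1417 FPKM in controls and 794 to 798 FPKM in IGF1 libraries, and Pcna was the most abundant gene. Of the 12, 10 had negative log2 fold changes and 2 positive ones, Mki67 (1.1, limma adjusted p = 0.069) and Birc5 (0.31). The groups were apart and lower in 9. Mki67 was at 7.55, 21.0 and 7.83 FPKM in controls and at 24.8, 24.9 and 23.3 FPKM with IGF1, with the groups apart. The part of the proliferation genes in these results was not tested.

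**Figure D3:**
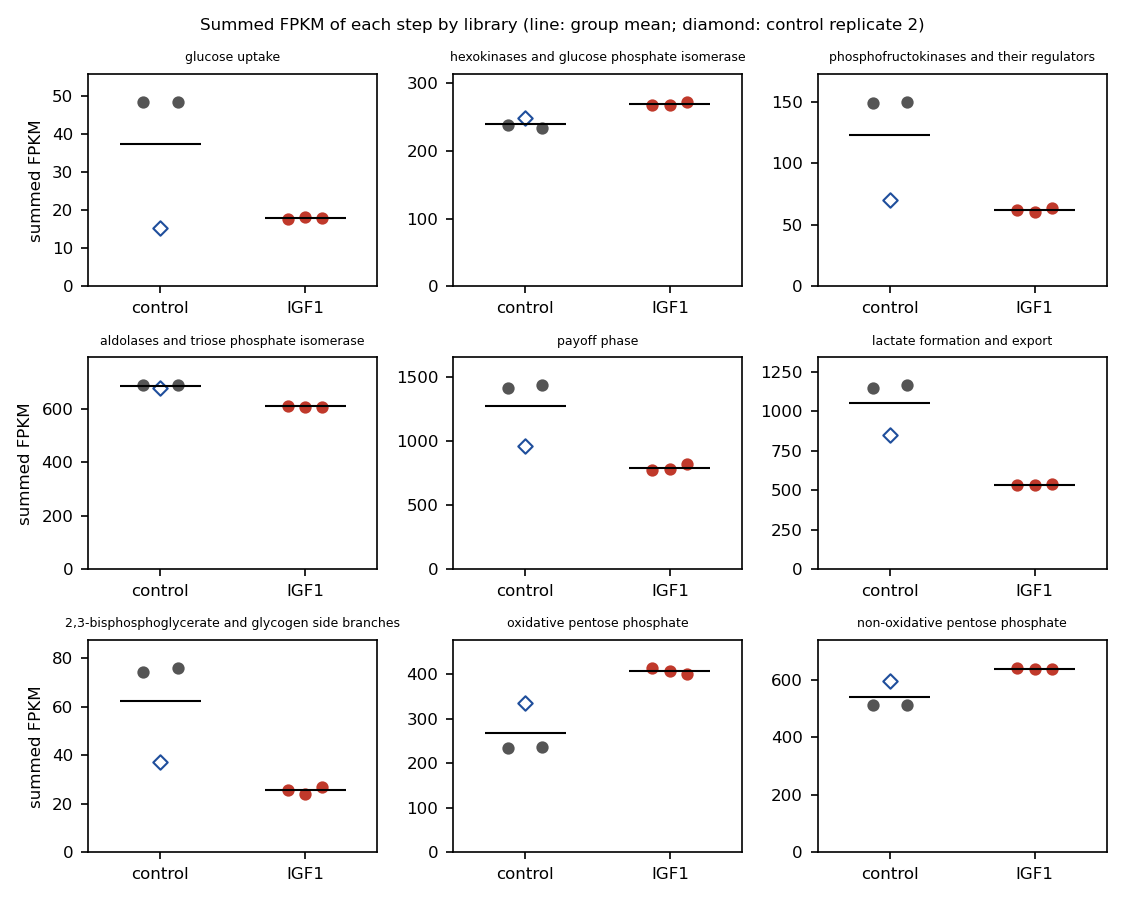
Summed FPKM of the genes of each of the 9 steps in each library, on axes that start at 0, with a line at the group mean, grey circles for control replicates 1 and 3, an open diamond for control replicate 2 and red circles for IGF1. The payoff and lactate sums are lower with IGF1 in every library (at most 821 and 537 FPKM), and both pentose phosphate sums are higher on this scale (at least 402 and 636 FPKM), the non-oxidative one not as a percent of all FPKM nor with quantile normalization.

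Within families, most isozyme shares had groups apart, although no share could pass a test. Among hexokinase transcripts Hk1 held 54.3%, 38.0% and 53.5% in controls and 26.7%, 27.0% and 24.4% with IGF1, and Hk3 held 38.7%, 46.9% and 39.1% against 60.0%, 58.5% and 62.1%. Hk3 thus was the main hexokinase transcript in all IGF1 libraries and in control replicate 2, and Hk1 in control replicates 1 and 3. Pfkm held 10.1%, 15.4% and 9.03% of phosphofructokinase transcript in controls and 19.7%, 21.1% and 21.5% with IGF1. Ldha held 94.5%, 93.6% and 94.5% of lactate dehydrogenase transcript in controls and 90.4%, 91.5% and 90.6% with IGF1, and Slc16a1 held 96.3%, 79.0% and 95.6% of the transcript of its pair and then 73.1%, 75.1% and 77.2%. Of 12 such shares, 10 had groups apart (exact permutation p = 0.1, adjusted 0.12), and Hk2 and Pfkfb3 overlapped (exact permutation p = 0.4 and 1). No share could pass, since 0.1 is the smallest p of this design. Among single genes, 59.3% of all genes tested had groups apart. Shares of 1 family depend on each other. With quantile normalization the differences for Pfkp and Aldoa turned from -1.99 and 0.463 to 0.0717 and -0.186 percentage points.

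**Figure D4:**
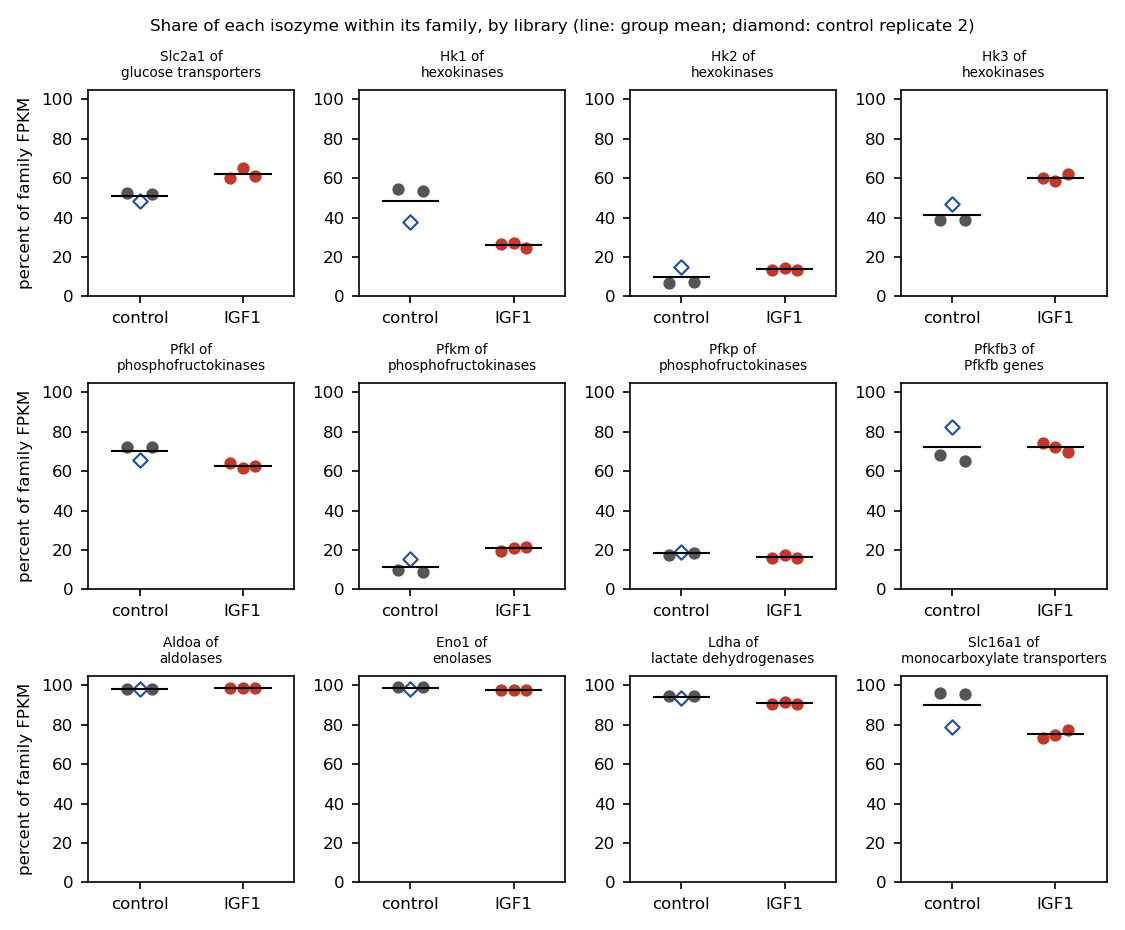
Percent of the summed FPKM of a family held by each isozyme, for 12 shares, by library, with a line at the group mean, grey circles for control replicates 1 and 3, an open diamond for control replicate 2 and red circles for IGF1. Hk1 drops from 54.3% and 53.5% in control replicates 1 and 3 to at most 27.0% with IGF1, Hk3 reaches 58.5% or more, and Aldoa and Eno1 hold over 97% of their families in every library.

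Other genes of these pathways were taken from 3 further lists. Of 28 other glycolysis genes, 17 could be tested, 1 was called higher and 0 lower, against 1.98% and 4.62% of all genes tested. The called gene was Mpc2, a subunit of the mitochondrial pyruvate carrier, at 81.1, 167 and 79.98 FPKM in controls and 220.4, 227 and 234 FPKM with IGF1. It rose by 1.14 on the log2 scale (limma adjusted p = 0.0484), and the call was lost at the 75th percentile (1.39, limma adjusted p = 0.0512), with length and GC trends removed (1.74, limma adjusted p = 0.0508) and with no filter. Its partner Mpc1 was at 19.9 to 23.0 FPKM in controls and 15.1 to 17.0 FPKM with IGF1, a log2 fold change of -0.36 that did not pass (limma adjusted p = 0.0556). At the adjusted p alone, Pgp, a phosphoglycolate phosphatase, and Pgam2, the muscle phosphoglycerate mutase, were also higher (log2 fold changes 0.82 and 0.94, limma adjusted p = 0.0427 and 0.0486), and Pfkfb1 was lower (-0.55, limma adjusted p = 0.0419). With length and GC trends removed, Pgam2 came to -0.03 and Pfkfb1 to -0.02 (limma adjusted p = 0.875 and 0.931). Pgam5, named for its likeness to the mutases, did not pass (-0.81, limma adjusted p = 0.0509).

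Of 12 other pentose phosphate genes listed, 10 could be tested and 2 were called lower, against 4.62% of all genes tested, both of them ribose phosphate pyrophosphokinases that feed ribose 5-phosphate into nucleotide synthesis. Prps1 was at 153, 65.3 and 155 FPKM in controls and at 30.9, 32.7 and 27.8 FPKM with IGF1. It fell by 1.89 on the log2 scale (SE 0.35, limma adjusted p = 0.0358). Prps2 was at 53.6, 20.5 and 53.1 FPKM in controls and at 12.7, 13.1 and 13.1 FPKM with IGF1, and it fell by 1.51 (SE 0.38, limma adjusted p = 0.0459). With length and GC trends removed Prps1 kept its call (-1.51) and Prps2 came under 2-fold (-0.88). In both genes the groups were apart, with control replicate 2 between the other controls and IGF1. Shpk, the sedoheptulose kinase, was lower at the adjusted p alone (-0.52, limma adjusted p = 0.0394, but 0.107 with length and GC trends removed), and Idnk, a gluconate kinase, and Rbks, the ribokinase, had log2 fold changes of 0.89 and 0.49 that did not pass.

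Of 25 genes of gluconeogenesis and of the glycogen, hexosamine and glycerol branches, 21 could be tested, 3 were called lower and 0 higher, against 4.62% and 1.98% of all genes tested. Pgm3, of hexosamine synthesis, was at 5.67, 2.80 and 6.94 FPKM in controls and 1.24, 1.32 and 1.06 FPKM with IGF1, and fell by 1.41 (limma adjusted p = 0.0368). Gpd1l, related to glycerol phosphate dehydrogenase, fell by 1.35 (limma adjusted p = 0.0464), and Gnpda1, which returns glucosamine phosphate to glycolysis, fell by 1.21 (limma adjusted p = 0.0439). With length and GC trends removed these came to -0.88, -0.98 and -0.93 and were not called. Gyg, the primer of glycogen, and Mpi, the mannose phosphate isomerase, were lower at the adjusted p alone (-0.73 and -0.50, limma adjusted p = 0.0358 and 0.0368), Mpi not so at the 75th percentile (-0.25, limma adjusted p = 0.122), and Pygm, Pgm2l1 and Pmm1 had positive fold changes of 0.37, 0.73 and 0.37 that did not pass. The medians over the tested genes of the 3 lists were -0.20, -0.57 and -0.50, beside -0.18 for all genes tested.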

How the data were processed

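RNA-seq libraries of sorted HSCs from 3 control and 3 IGF1-treated samples were analysed, 1 file per library. The submitters' processing notes name fastp, HISAT2, StringTie, GRCm38 and mm10, while the study's methods name RSEM for quantification and DESeq2 for testing. The authors deposited 1 FPKM value per gene symbol, 21878 rows per library, with no counts. Rows sharing a name (4) or with date-like names (27) were left out. Values of a gene rose in whole steps, and these gave reads (or fragments) whole to within 0.002 for 14817 of 14817 rows above 0 in at least 2 libraries, taking the smallest whole numbers that met it. Mitochondrially encoded genes listed came to 0.

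The 10435 genes that reached 1 FPKM in 3 or more libraries entered 1 fit of log2(FPKM + 1) by limma 3.58.1 (trend, R 4.3.3), without a replicate block, since FPKM are not counts, and fold changes are on that scale and understate those of low genes. The study's thresholds, 2-fold and adjusted p 0.05 (Benjamini-Hochberg over all genes tested), were kept. The fit and the recovery of reads were tested on simulated data. Trends with transcript length and GC content (96.8% of genes tested) were removed by loess in 1 alternative. Counting intervals cover counting error only. Permutation tests used scipy 1.17.1. Gene spans came from the GRCm38 annotation and promoters from RefSeq.

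The 34 members, like the other lists, were chosen with earlier results of these data known. All members were named, and of each further pathway list every called gene and otherwise up to 3 genes with the smallest p in each direction. The alternatives were other scalings, filters and pseudocounts, no trend, a block, leaving out each library, voom on recovered reads and the adjusted p alone.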

Additional observations from a re-analysis of the deposited data

How the results depend on the processing

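Over all genes tested, 207 were called higher and 482 lower. The split was 301 and 313 with quantile normalization, 301 and 258 at the 75th percentile, 109 and 265 with no filter on low values, 379 and 681 with voom, 161 and 142 with length and GC trends removed, and 654 and 1472 at the adjusted p alone. With 1 library left out the counts ran from 0 to 1281 higher and from 0 to 2153 lower, the upper ends without control replicate 2. The members called higher, 0, came to 1 at the adjusted p alone and to 0 to 2 with 1 library left out. The members called lower, 2, came to 1 with no filter, 1 at a minimum of 5 FPKM, 1 with no variance trend, 1 with length and GC trends removed, 9 at the adjusted p alone, 3 with quantile normalization and 0 to 12 with 1 library left out. Quantile normalization added Ldha and Slc16a1 and lost Pgm2, and at the 75th percentile 5 members in place of 9 were lower at the adjusted p alone. Rpe was called in each of these fits of all 6 libraries, and Pgm2 was lost with quantile normalization, no filter, a minimum of 5 FPKM, no trend, voom and length and GC trends removed. The cause of these changes was not tested, beyond the fewer genes tested at 5 FPKM.

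The labels number the replicates of both groups, but same-numbered libraries did not deviate together (correlations of -0.057, -0.05 and 0.006), so the numbers were not taken as pairs. With a replicate block 0 members and 0 of all genes were called in either direction, while 17 members were lower and 4 higher at an unadjusted limma p under 0.05. At that level 3077 of the 10435 genes tested were lower and 1707 higher in the same fit.

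The median over the members moved from -0.49 to -0.24 at the 75th percentile. Signs turned for Pfkm (0.22 with quantile normalization, 0.12 at the 75th percentile, 0.05 with length and GC trends removed), Aldoa (-0.47 with quantile normalization, -0.27 with length and GC removed), Tkt and Taldo1 (-0.14 and -0.11 with quantile normalization), Pfkfb3 (-0.04 to 0.30 with 1 library left out, the lowest without control replicate 3), Pfkfb4 (-0.02 to 0.17, the lowest without control replicate 2), and, with length and GC removed, Pgam2 (-0.03), Rbks (-0.01) and Pmm1 (-0.21). Of the family shares, quantile normalization gave differences in percentage points of -10.8 for Pfkl, 0.0717 for Pfkp, -0.186 for Aldoa, -1.67 for Eno1 and -6.92 for Ldha, and the Pfkfb3 share ran from -3.14 to 5.35 with 1 library left out (-1.62 without control replicate 1, -0.942 without IGF1 replicate 1). Of the step sums, whose alternatives were chosen after seeing the data, the non-oxidative branch went from 98.8 FPKM higher to -53.1 with quantile normalization and to -0.0105 percentage points of all FPKM, and the hexokinases with Gpi1 to -0.00715 percentage points. Depth limited few members, since Rpia had the lowest read count, 21, in a library, but 3 libraries a group, of which 1 control stood apart, limit every call.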

Other observations

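Ratios between genes of the same library do not depend on scaling by a library-wide factor, and 2 of them are given as values with no test. They were chosen after the values were seen, for genes whose log2 fold changes had opposite signs. The ratio of Rpe to Rpia FPKM was 25.7, 1.22 and 34.3 for the controls in order of replicate and 0.377, 0.441 and 0.402 for the IGF1 libraries. In every control Rpe was thus above Rpia, and in every IGF1 library below it. The ratio of G6pdx to Pgls was 0.615, 0.136 and 0.571 in controls and 0.0819, 0.0806 and 0.0854 with IGF1. Both ratios placed control replicate 2 below the other controls and above all IGF1 libraries.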
